A study of Mus musculus with 80 samples.

Results

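The genes described here are 10 of the 24508 gene symbols in the tables: B2m, H2-K1 and H2-D1 of the major histocompatibility complex (MHC) class I pathway, Tap1, Tapbp and Psmb8 of peptide supply, H2-Eb1, H2-Aa and Cd74 of the class II pathway, and Aire. They were chosen by symbol with their knockout and wild-type values known, so every comparison of the genotypes for them is a description without a test. All 10 symbols were found in each of the 5 expression tables used.

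The cells were Mll2F/F:CreERT2/+ mouse embryonic stem cells derived from C57Bl/6 blastocysts and grown without feeders in serum and LIF. In the wild type (WT) they received carrier, and in the Mll2 knockout (KO) they received 4-hydroxytamoxifen for 96 h to activate Cre, so both genotypes carried the floxed alleles and the Cre, and the deletion cannot be told apart from the drug. RNA was sequenced from these cells (day 0) and from hanging-drop embryoid bodies at days 3, 6 and 9, and engaged RNA polymerase was mapped by PRO-seq, which sequences nascent transcripts from nuclei, in the stem cells. Each genotype had 2 libraries in each of the 5 tables. The labels do not say that replicates were separate cultures, so the spread between them may be technical.

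MHC class I molecules present peptides from inside the cell to cytotoxic T cells, and consist of a heavy chain and the shared light chain B2m. Their peptides are cut by proteasomes, carried into the endoplasmic reticulum by the Tap1 and Tap2 transporter, and loaded with the help of tapasin, the product of Tapbp. Class II molecules pair an alpha with a beta chain on professional antigen-presenting cells and depend on the invariant chain Cd74. The coactivators Nlrc5 (class I) and Ciita (class II) act through the RFX and NF-Y factors on promoter elements called the X and Y boxes, and pluripotent stem cells are known for low surface class I. Mll2, also called Kmt2b, is a histone H3 lysine 4 methyltransferase that acts at many CpG-rich promoters.

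Depth was 29018994 to 34476635 assigned reads in the 16 RNA libraries and 16328491 to 20048187 reads in the 4 PRO-seq libraries, as recovered from the FPKM values (fragments per kilobase of transcript, scaled to library size). Kmt2b itself overlapped between genotypes at day 0 (WT 9.44 and 11.8 FPKM, KO 9.46 and 9.49) and was lower in the KO on the other days, with KO over WT ratios of 0.436, 0.530 and 0.616. These are reads over the whole gene, and where the deleted part lies is not given in the sources used here. The stem cell markers Pou5f1, Nanog, Zfp42, Sox2 and Esrrb were detected in every library. At day 0 they summed to 2.19e+03 to 2.64e+03 FPKM in the WT and to 1.98e+03 to 2e+03 FPKM in the KO. The KO sum was lower at day 3 too (1.62e+03 to 1.72e+03 against 1.22e+03 to 1.45e+03 FPKM). Day 6 had the same order (1.41e+03 to 1.43e+03 against 1.15e+03 to 1.28e+03 FPKM), and the sums overlapped at day 9. In PRO-seq they were 480 to 511 FPKM in the WT and 352 to 400 FPKM in the KO. The leukocyte list (11 of 12 markers in the files) summed to 27.4 to 113 FPKM in the RNA tables, most of it Laptm5 (18.02 to 104 FPKM), while the defining marker Ptprc did not exceed 0.0634 FPKM and Itgax, of the dendritic list, was at 0 in all 16 RNA libraries. The 5 visceral endoderm markers summed to 0.168 to 0.704 FPKM in the WT embryoid bodies and to 1.85 to 21.2 FPKM in the KO ones, and Ttr was at 0 in the WT at days 3 and 6. The 7 fibroblast markers summed to 4.23 to 4.65 FPKM in the WT and 12.6 to 16.5 FPKM in the KO at day 3 and to 8.39 to 9.33 against 14.7 to 15.8 FPKM at day 6, and their sums overlapped at day 9 (11.4 to 18.2 against 14.8 to 18.7 FPKM). The 5 endothelial markers, mostly Pecam1, summed to 25.1 to 33.1 FPKM in the WT embryoid bodies and to 15.4 to 20.2 FPKM in the KO ones. These 3 sums already differed in the same direction in the stem cells at day 0. The endothelial sum was 30.4 to 31.3 FPKM in the WT and 23.3 to 24.9 FPKM in the KO. The fibroblast sum was 2.9 to 3.27 against 4.21 to 6.25 FPKM, and the visceral endoderm sum 0.927 to 1.35 against 1.38 to 1.71 FPKM. The part of these cell types in the differences below was not tested, and in bulk samples fewer cells of a type and less RNA per cell cannot be told apart.

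In WT stem cells the members ranged from clearly transcribed to barely detected. B2m was highest (29.2 and 34.4 FPKM), followed by H2-K1 (13.4 and 13.7), Tapbp (6.94 and 8.35) and H2-D1 (4.56 and 4.93), each separated from the next by more than the gap between its libraries. H2-Eb1 and Aire overlapped each other, as did Cd74 and Tap1, and Psmb8 and H2-Aa were both under 0.2 FPKM. By day 9 H2-K1 (20.1 and 35.4 FPKM) overlapped B2m (22.8 and 27.5 FPKM) at the top. H2-Aa was last at day 9 and Psmb8 had moved above Tap1, though the libraries of that pair overlapped. Each day's table was scaled on its own, so levels set across days are descriptions.

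**Figure D1:**
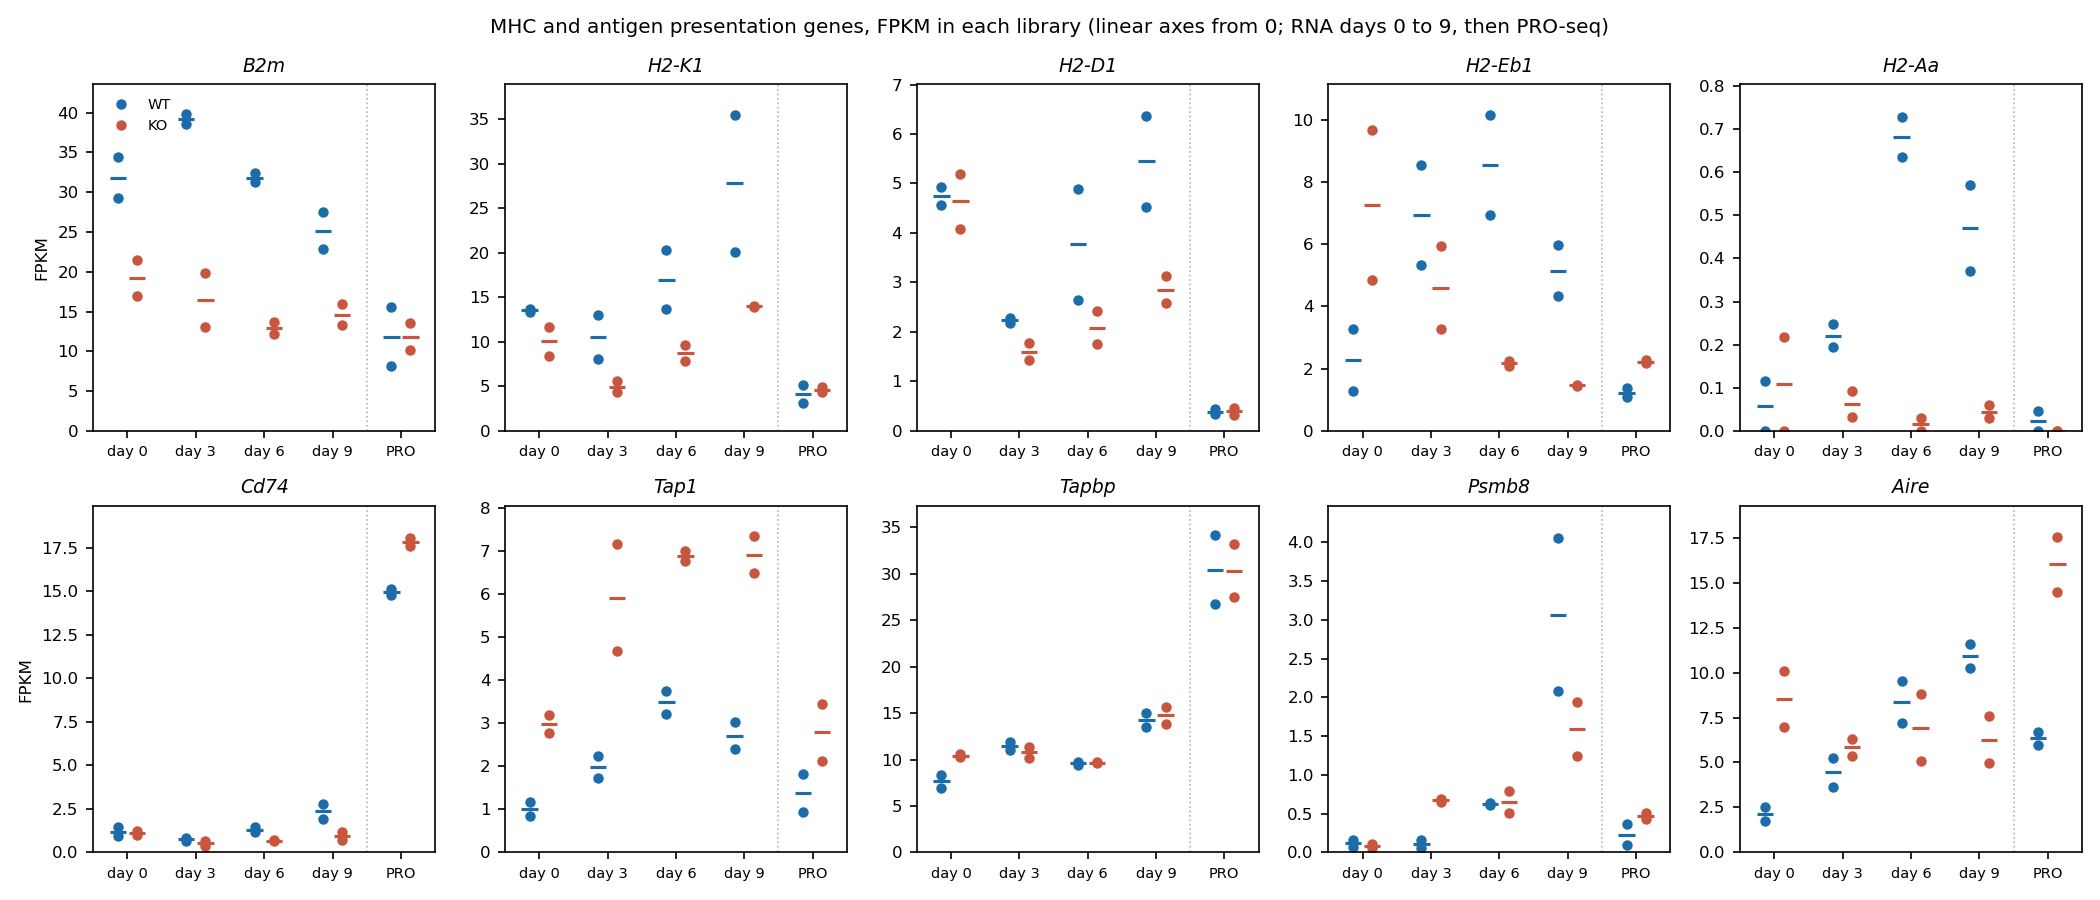
FPKM of each member in every library (points) with the mean of 2 libraries (bars), for WT and KO, at RNA days 0, 3, 6 and 9 and in PRO-seq, on linear axes that start at 0. B2m and H2-K1 were lower in the KO at all 4 RNA days, Tap1 was higher at all 4, and H2-Eb1 and Aire were higher in the KO at day 0 and lower at day 9.

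Separation of the genotypes was counted over the members beside all genes, and nothing is read from these counts, since the members were chosen on this contrast. Of the members with a mean of at least 1 FPKM over the 4 libraries, WT and KO libraries did not overlap for 6 of 8 at day 0 (43.3% of all genes tested), 5 of 7 at day 3 (68.0% of all genes) and 5 of 7 at day 6 (61.8% of all genes). At day 9 it was 8 of 9 (56.9% of all genes), and in PRO-seq 4 of 7 (48.5% of all genes). H2-Aa was under that mean in every table, Psmb8 in all but day 9, Cd74 at days 3 and 6, and H2-D1 in PRO-seq.

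B2m, the light chain without which class I molecules do not reach the surface stably, was lower in the KO at every RNA day. At day 0 it measured 29.2 and 34.4 FPKM in the WT and 16.9 and 21.5 FPKM in the KO. At day 3 it measured 39.9 and 38.6 FPKM against 13.05 and 19.9 FPKM, and at day 6 31.2 and 32.4 FPKM against 12.2 and 13.7 FPKM. No KO library reached a WT library on these days, nor at day 9 (22.8 and 27.5 FPKM in the WT, 15.9 and 13.3 FPKM in the KO). Each value rests on 343 to 1036 reads. The means at day 3 were 39.2 ± 0.873 FPKM in the WT and 16.5 ± 4.82 FPKM in the KO (SD, n = 2). The KO minus WT difference of log2(FPKM + 1), the scale of all log2 values below, was -0.71 (SE 0.17) at day 0, -1.23 (SE 0.18) at day 3, -1.24 (SE 0.09) at day 6 and -0.74 (SE 0.15) at day 9. Nascent transcription over B2m did not show the separation: PRO-seq gave 15.5 and 8.10 FPKM in the WT and 13.5 and 10.1 FPKM in the KO, both KO libraries lying between the WT ones (0.05, SE 0.28). The WT libraries lay far apart there, and the SE was larger than for the RNA. B2m overlaps Patl2 in the RefSeq annotation of GRCm38.p6. Patl2 RNA measured 5.88 and 6.55 FPKM in the WT and 6.13 and 12.8 FPKM in the KO at day 0, an overlap. The strand setting used in counting is not known, and the part of Patl2 reads in the B2m values was not tested.

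Over the 16 RNA libraries, the genes whose log2 values were most like those of B2m were Nxt2 (Pearson r 0.940), Usp26 (0.937), Magohb (0.936), Zfyve9 (0.935) and Wdfy1 (0.927), out of 11368 genes. These correlations pool genotypes and days that share libraries, and are a description.

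H2-K1, the classical class I heavy chain H-2K, was also lower in the KO at every RNA day. At day 0 it measured 13.4 and 13.7 FPKM in the WT and 11.7 and 8.45 FPKM in the KO (log2 difference -0.41, SE 0.18). The gap was wider in the embryoid bodies: 8.09 and 13.1 FPKM against 4.37 and 5.60 FPKM at day 3, 13.6 and 20.3 FPKM against 7.84 and 9.68 FPKM at day 6, and 20.1 and 35.4 FPKM against 13.9 and 14.1 FPKM at day 9. The log2 differences were -0.93 (SE 0.22), -0.86 (SE 0.19) and -0.89 (SE 0.24). Both genotypes were higher at day 9 than at day 0, by 2.05 times in the WT and 1.39 times in the KO. PRO-seq overlapped, at 5.10 and 3.10 FPKM in the WT and 4.91 and 4.33 FPKM in the KO.

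H2-D1, the H-2D heavy chain, had overlapping libraries at day 0 (4.93 and 4.56 FPKM in the WT, 5.20 and 4.09 FPKM in the KO) and was lower in the KO on the later days. The day 9 libraries gave 4.53 and 6.36 FPKM in the WT and 3.12 and 2.58 FPKM in the KO. Its log2 difference was -0.03 (SE 0.17) at day 0, -0.32 (SE 0.12) at day 3, -0.59 (SE 0.23) at day 6 and -0.73 (SE 0.18) at day 9. H2-K1, H2-D1 and the other class I heavy chains are near-identical in parts of their sequence, and how shared reads were assigned is not given in the sources used here, so the split between them is uncertain. PRO-seq over H2-D1 held 11 to 14 reads a library (0.33 to 0.46 FPKM), too few to order the genotypes.

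A pair of promoter elements recurred in some members. RefSeq promoters (GRCm38.p6, 250 bases before to 50 after the start) were searched for 9 members, with Cd74 left out. Of these, 4 (B2m, H2-K1, H2-D1 and H2-Aa) hold an X2-type element (TGACG, the core of the X2 box) followed on the same strand by a Y box (ATTGG, the NF-Y site). There are 20 bases between them in the class I genes and 21 in H2-Aa. With 15 to 25 bases allowed between them, a range set with these promoters known, 0.435% of all 32851 promoters hold such a pair on either strand. The pairs are shown because their spacing recurs, with the X2 element and the Y box in capitals. H2-Eb1 has the Y box but no TGACG before it, and its stretch is given for comparison.
B2m, chr2:122147609-122147638, plus strand: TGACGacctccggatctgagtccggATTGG
H2-K1, chr17:34000359-34000388, minus strand: TGACGcgcagtcagctcttacccccATTGG
H2-D1, chr17:35262993-35263022, plus strand: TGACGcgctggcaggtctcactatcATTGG
H2-Aa, chr17:34287867-34287897, minus strand: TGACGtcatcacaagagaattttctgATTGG
H2-Eb1, chr17:34305781-34305812, plus strand: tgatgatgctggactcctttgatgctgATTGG

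Searched on both strands, a Y box (ATTGG or CCAAT) was found in 37.4% of all promoters, an X2 element (TGACG or CGTCA) in 20.8%, a gamma-activated (GAS) element (TTCNNNGAA) in 8.30%, an interferon-stimulated response element (ISRE) in 3.44% and an NF-kB element in 5.89%. Of the 9 members, B2m alone matched the ISRE, and Psmb8 alone matched the GAS element. H2-K1, H2-D1 and H2-Aa matched the NF-kB element, in the first 2 of these genes as a pair of matches shifted by 1 base. The whole B2m and H2-K1 windows follow because these genes were lower in the KO at every RNA day, with all matches of the 5 elements in capitals.
B2m, chr2:122147437-122147736, plus strand: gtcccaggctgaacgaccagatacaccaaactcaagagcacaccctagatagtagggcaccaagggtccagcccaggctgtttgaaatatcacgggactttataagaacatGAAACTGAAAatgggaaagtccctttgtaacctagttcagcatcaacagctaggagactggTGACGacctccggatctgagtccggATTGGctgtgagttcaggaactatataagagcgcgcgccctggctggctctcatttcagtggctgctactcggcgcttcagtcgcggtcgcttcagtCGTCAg
H2-K1, chr17:34000298-34000597, minus strand: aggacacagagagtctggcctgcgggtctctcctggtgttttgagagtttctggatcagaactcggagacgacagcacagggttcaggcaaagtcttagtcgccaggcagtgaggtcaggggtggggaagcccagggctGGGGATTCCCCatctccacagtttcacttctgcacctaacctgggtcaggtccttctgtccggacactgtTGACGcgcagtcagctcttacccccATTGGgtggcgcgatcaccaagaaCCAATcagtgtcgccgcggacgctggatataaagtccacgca
A match is a run of letters in these windows and not evidence of binding. The windows of B2m and H2-K1 hold 14 CpG each and that of H2-D1 19, against a median of 7 over all promoters. Fewer CpG were found in 63.7% of all promoters for the first 2 and in 71.9% for H2-D1. The windows of Tap1 and Aire hold 15 and 16 CpG.

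Tap1, a subunit of the peptide transporter, was the 1 member that was higher in the KO in all 5 tables without overlap. It measured 0.838 and 1.16 FPKM in the WT and 3.20 and 2.79 FPKM in the KO at day 0, 2.25 and 1.72 FPKM against 7.16 and 4.68 FPKM at day 3, and 3.76 and 3.21 FPKM against 6.76 and 6.99 FPKM at day 6. At day 9 the libraries gave 2.40 and 3.02 FPKM in the WT and 7.34 and 6.48 FPKM in the KO. The ratio of KO to WT means lay between 1.97 at day 6 and 2.99 at day 0. The log2 differences were 1.00 (SE 0.17), 1.19 (SE 0.19), 0.81 (SE 0.11) and 1.10 (SE 0.15). In PRO-seq Tap1 measured 1.83 and 0.931 FPKM in the WT and 3.46 and 2.14 FPKM in the KO (0.68, SE 0.25), so the direction was that of the RNA.

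Tap1 lies within 1 kb of Psmb9 in GRCm38.p6, an inducible proteasome subunit gene that starts from the opposite strand, and within 1 kb of Psmb8. At day 0 Psmb9 was also higher in both KO libraries, at 1.53 and 1.64 FPKM against 1.42 and 1.052 FPKM in the WT, but was not called (log2 difference 0.21, SE 0.17, limma adjusted p = 0.677). Its libraries overlapped at days 3, 6 and 9 and in PRO-seq. The Tap1 window is shown because it is the member higher in the KO throughout, and its Y box and X2 element, in capitals, are not arranged as in the class I genes.
Tap1, chr17:34187306-34187605, plus strand: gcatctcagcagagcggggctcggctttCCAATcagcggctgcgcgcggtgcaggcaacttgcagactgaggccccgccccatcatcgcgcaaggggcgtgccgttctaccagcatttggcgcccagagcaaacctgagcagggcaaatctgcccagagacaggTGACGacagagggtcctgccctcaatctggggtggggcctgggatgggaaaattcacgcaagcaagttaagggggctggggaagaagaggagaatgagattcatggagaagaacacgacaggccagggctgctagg
Its Y box lies on the opposite strand 222 to 218 bases before the start and its X2 element 86 to 82 bases before it.

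Tapbp, which encodes tapasin, was higher in the KO at day 0 (6.94 and 8.35 FPKM in the WT, 10.2 and 10.6 FPKM in the KO). Its log2 difference was 0.41 (SE 0.16) at day 0 and between -0.08 and 0.05 in the embryoid bodies, where the libraries overlapped on each day. PRO-seq overlapped as well, at 26.8 and 34.2 FPKM in the WT and 27.5 and 33.2 FPKM in the KO. Tapbp was the highest of the members in PRO-seq.

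Psmb8, the inducible proteasome subunit that replaces the constitutive Psmb5, was near the limit of detection in stem cells (0.0758 and 0.160 FPKM in the WT, 0.0545 and 0.108 FPKM in the KO, 2 to 6 reads a library). At day 3 the KO was higher, at 0.694 and 0.650 FPKM against 0.162 and 0.0570 FPKM in the WT, on 2 to 26 reads a library. The libraries overlapped at day 6 (0.637 and 0.611 FPKM against 0.798 and 0.509 FPKM), and at day 9 the order was the opposite of day 3, with 2.08 and 4.06 FPKM in the WT and 1.94 and 1.25 FPKM in the KO (log2 difference -0.62, SE 0.26). In both genotypes Psmb8 was higher at day 9 than at day 0, by 26.0 times in the WT and 19.6 times in the KO, from a starting level of a few reads.

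H2-Eb1, the beta chain of the class II molecule I-E, was the member whose genotype difference changed direction most. In C57Bl/6 mice its alpha chain partner is not made, so the protein does not form a surface molecule in this strain. At day 0 it measured 3.28 and 1.27 FPKM in the WT and 9.66 and 4.84 FPKM in the KO. At day 3 the libraries overlapped (8.54 and 5.32 FPKM against 5.95 and 3.27 FPKM). The KO was lower at day 6, at 10.2 and 6.94 FPKM against 2.25 and 2.10 FPKM, and at day 9, at 5.98 and 4.32 FPKM against 1.46 and 1.47 FPKM. In the WT the mean was 3.76 times its day 0 level at day 6, and in the KO 0.300 times. The log2 difference went from 1.34 (SE 0.36) at day 0 through -0.51 (SE 0.28) at day 3 to -1.57 (SE 0.17) at day 6 and -1.31 (SE 0.17) at day 9. Replicates differed widely at day 0, by more than 2-fold within the WT (means of 2.27 ± 1.42 FPKM in the WT and 7.25 ± 3.40 FPKM in the KO, SD, n = 2). In PRO-seq of the stem cells H2-Eb1 was also higher in the KO, at 1.36 and 1.08 FPKM in the WT and 2.18 and 2.28 FPKM in the KO, on 31 to 73 reads a library.

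The H2-Eb1 promoter is shown because this gene changed direction. It holds 0 CpG in 300 bases, unlike the other windows searched (3 in H2-Aa and 11 to 19 in the rest). Both of its Y boxes, 1 on each strand, are in capitals.
H2-Eb1, chr17:34305617-34305916, plus strand: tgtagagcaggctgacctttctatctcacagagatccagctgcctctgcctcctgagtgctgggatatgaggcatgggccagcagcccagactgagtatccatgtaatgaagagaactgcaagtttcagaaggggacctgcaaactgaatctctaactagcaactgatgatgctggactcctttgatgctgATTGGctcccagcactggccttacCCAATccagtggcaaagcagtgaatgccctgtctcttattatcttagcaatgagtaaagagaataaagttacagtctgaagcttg
Over the 16 RNA libraries the genes most like H2-Eb1 were Zfp985 (r 0.900), Ccpg1 (0.894), Trmt44 (0.893), Zfp446 (0.891) and Ldoc1 (0.875), again as a description.

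H2-Aa, the alpha chain of the class II molecule I-A, was barely detected, and the difference between genotypes rests on few reads. At day 6 the WT libraries together held 44 reads and the KO libraries 1, a ratio of 46.2 with a 95% interval of 7.87 to 1.87e+03. At day 9 it was 32 against 3 reads (10.6, interval 3.33 to 54.3) and at day 3 14 against 4 reads (3.53, interval 1.11 to 14.7). At day 0 the reads were 4 and 7. These are exact intervals on pooled reads and cover counting error only, not the spread between replicates. The highest level in any library was 0.729 FPKM, in a WT library at day 6. Its usual partner H2-Ab1 was also low, at 0.795 and 1.23 FPKM in the WT and 0.793 and 0.549 FPKM in the KO at day 6.

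Cd74, the invariant chain, had overlapping libraries at day 0 (1.44 and 0.921 FPKM in the WT, 1.25 and 1.03 FPKM in the KO). It was lower in the KO at day 6 (1.17 and 1.45 FPKM against 0.668 and 0.694 FPKM) and at day 9 (1.94 and 2.77 FPKM against 0.734 and 1.15 FPKM). The day 9 log2 difference was -0.79 (SE 0.20). The day 9 mean was 1.99 times the day 0 mean in the WT and 0.826 times in the KO. Cd79a, 1 of 5 B cell and dendritic markers, had the same order at day 6 (1.20 and 1.39 FPKM in the WT, 0.368 and 0.345 FPKM in the KO). In each genotype 3 of these 5 markers had a mean under 0.1 FPKM on that day. Their sum was lower in the KO at days 3, 6 and 9. At day 0 it was higher in the KO, at 2.76 to 2.91 FPKM against 1.80 to 2.07 FPKM in the WT. The part of such cells in the Cd74 and H2-Aa values was not tested.

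**Figure D2:**
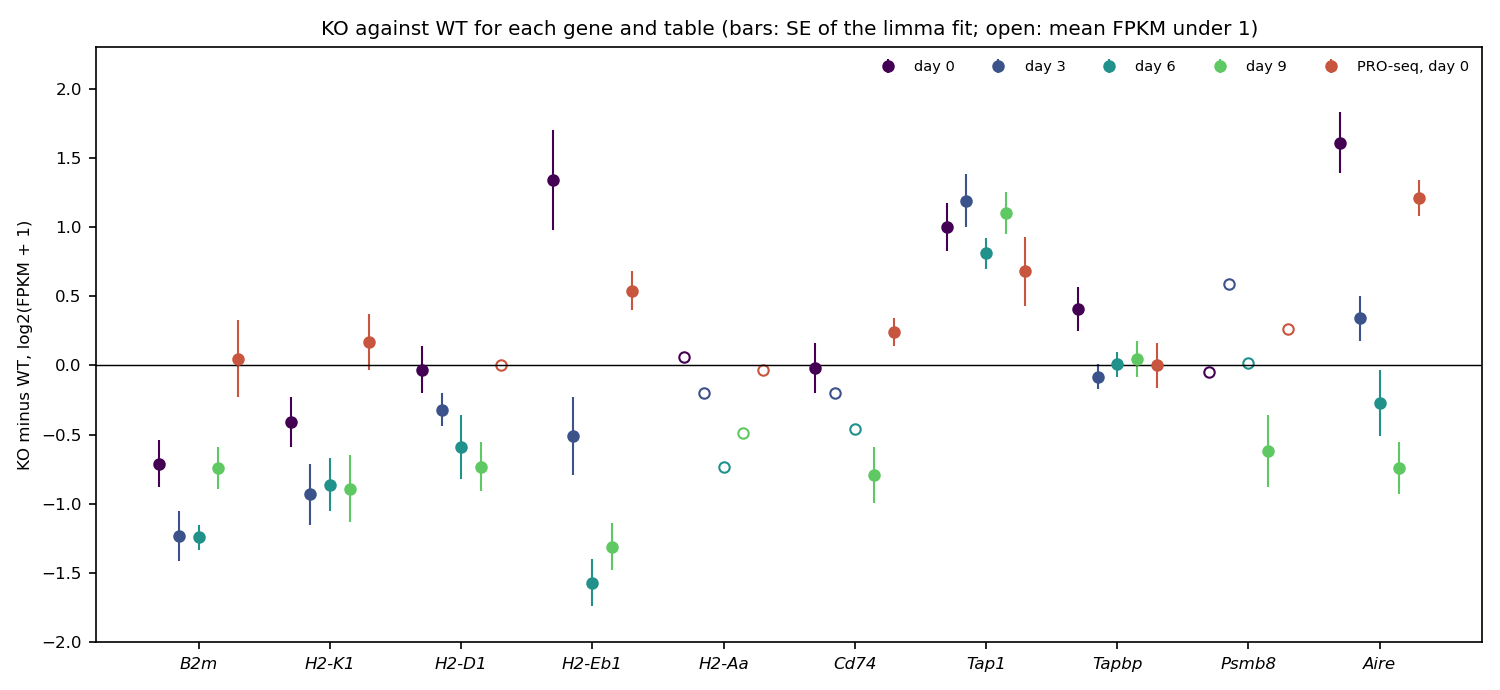
KO minus WT difference of mean log2(FPKM + 1) for each member at RNA days 0, 3, 6 and 9 and in PRO-seq of day 0 stem cells (filled points, with bars for the SE of the limma fit; open points without bars, mean under 1 FPKM). Tap1 lies above 0 in all 5 tables, B2m and H2-K1 lie below 0 at the 4 RNA days and near 0 in PRO-seq, and H2-Eb1 runs from 1.34 to -1.57.

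Nascent and steady-state levels ranked the members differently in WT stem cells. Cd74 stood out, with 14.8 and 15.1 FPKM in PRO-seq and 1.44 and 0.921 FPKM in RNA, a ratio of 12.7 that exceeded the ratio of 97.9% of the 10795 genes with at least 1 FPKM in both assays (median ratio 0.825). Tapbp followed with a ratio of 3.99 (above 91.1% of genes) and Aire with 2.99 (above 87.5%). The ratio was low for B2m at 0.371 (above 22.4% of genes) and for H2-K1 at 0.303 (above 17.7%), and H2-Eb1 had 0.539 (above 33.9%). PRO-seq of Cd74 was slightly higher in the KO, at 18.1 and 17.6 FPKM (log2 difference 0.24, SE 0.10). Tapbp has close neighbours, Zbtb22 and Rgl2, within 1 kb in GRCm38.p6, and Gm19412 overlaps it. Mir5107 overlaps Cd74. The strand setting used in counting is not given in the sources used here, so PRO-seq reads of adjoining or antisense transcripts cannot be told apart from a gene's own.

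**Figure D3:**
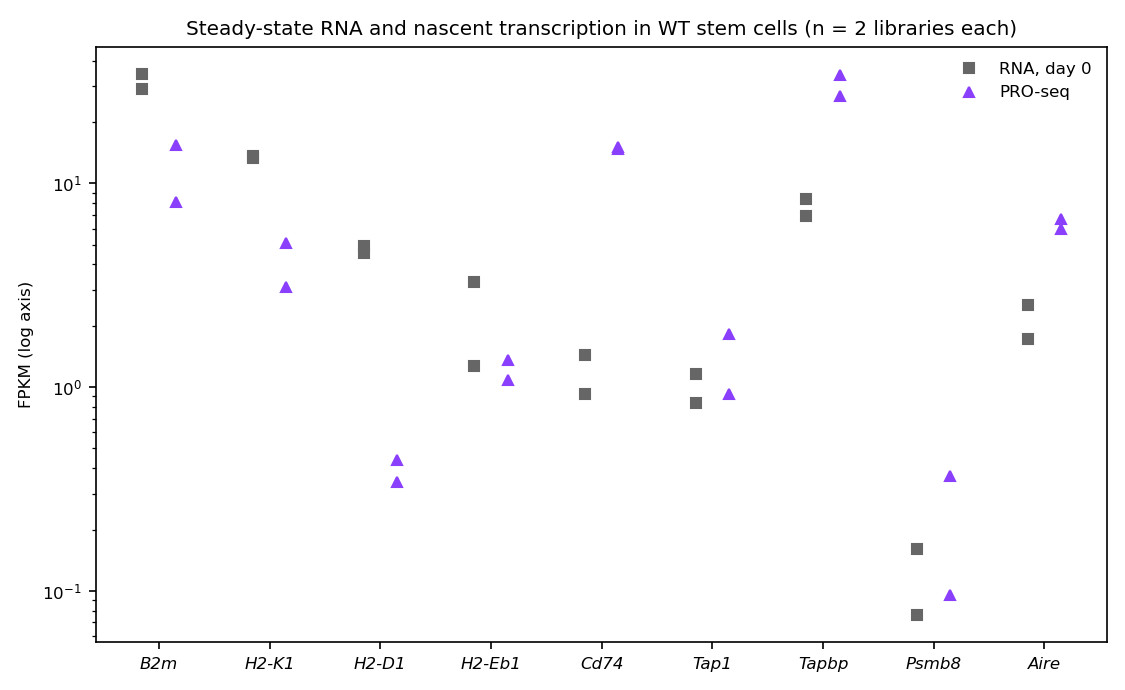
FPKM (log axis) of 9 members in the 2 WT RNA libraries of day 0 (squares) and the 2 WT PRO-seq libraries (triangles). H2-Aa is left out because it was at 0 in a library of each assay. Cd74 lies near 1 FPKM in RNA and near 15 FPKM in PRO-seq, and B2m, H2-K1 and H2-D1 lie lower in PRO-seq than in RNA.

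Aire, the autoimmune regulator that drives expression of tissue antigens in thymic epithelium, was higher in the KO stem cells. It measured 2.52 and 1.72 FPKM in the WT and 10.1 and 6.99 FPKM in the KO at day 0. In the WT it was higher on each later day (5.26 and 3.63 FPKM at day 3, 9.52 and 7.19 FPKM at day 6, 10.3 and 11.6 FPKM at day 9), and in the KO it was not (5.38 and 6.30 FPKM, 5.06 and 8.82 FPKM, 4.95 and 7.56 FPKM). The libraries overlapped at day 6, and at day 9 both KO libraries lay below the WT ones. The log2 difference was 1.61 (SE 0.22) at day 0, 0.34 (SE 0.16) at day 3, -0.27 (SE 0.24) at day 6 and -0.74 (SE 0.19) at day 9. PRO-seq in the stem cells had the same direction as the day 0 RNA, at 6.70 and 6.00 FPKM in the WT and 14.5 and 17.5 FPKM in the KO (1.21, SE 0.13).

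Aire overlaps Dnmt3l in GRCm38.p6, a cofactor of the de novo DNA methyltransferases that stem cells transcribe strongly. Dnmt3l RNA was also higher in the KO at day 0, at 101 and 95.7 FPKM in the WT and 222.8 and 215.8 FPKM in the KO, and its PRO-seq level was 15.5 and 13.9 FPKM against 35.7 and 32.3 FPKM. Aire FPKM came to 1.80 to 2.49% of Dnmt3l FPKM in the WT and 3.24 to 4.53% in the KO at day 0. In PRO-seq the share was 43.1 to 43.3% in the WT and 40.5 to 54.3% in the KO, so there the KO and WT shares overlapped. At day 9 Dnmt3l overlapped between genotypes (184.9 and 176.2 FPKM against 133.1 and 237.7 FPKM) while Aire did not. Without the strand setting, reads from Dnmt3l cannot be told apart from those of Aire where the genes overlap. Of 6 thymic epithelial markers, in RNA, Foxn1 did not exceed 0.163 FPKM and Ccl21a was at 0, and Cd80 made up most of the list's sum at day 0 (1.86 and 1.48 FPKM in the WT, 5.90 and 4.72 FPKM in the KO). The genes most like Aire over the 16 RNA libraries were Prkab1 (r 0.869), Ifitm3 (0.809), Zdhhc9 (0.806), Sgsm1 (0.804) and Aldoa (0.798).

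**Figure D4:**
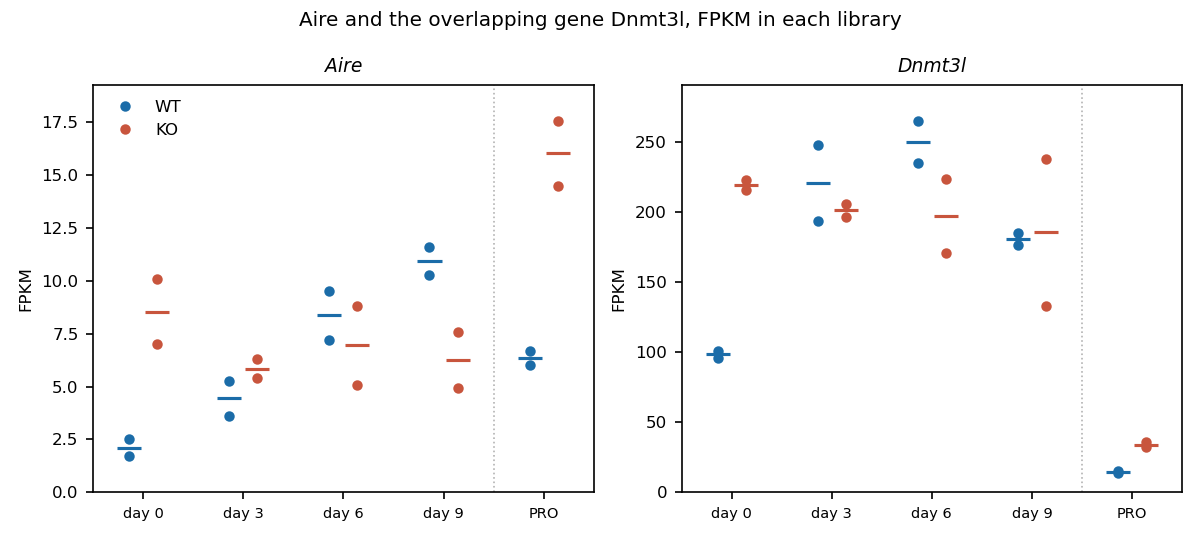
FPKM of Aire and of the overlapping gene Dnmt3l in every library (points) with means (bars), on linear axes from 0. Both genes are higher in the KO at day 0 and in PRO-seq, and at day 9 Aire is lower in the KO while Dnmt3l overlaps.

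Beyond the members, 99 other genes were listed by role in antigen presentation, its regulation, interferon signalling and work with Aire, of which 55 to 62 a table passed the filter at a mean of 1 FPKM and were tested. None passed the threshold in the stem cells, 16 of 55 did at day 3 and 14 of 57 at day 6, and 2 of 62 at day 9, in both directions. At day 0 limma (adjusted p under 0.05 over all genes) called 0 of 58, with 10 at an unadjusted p under 0.05, against 1.40% of all genes called higher and 1.93% called lower. At day 3 it called 7 higher (9.75% of all genes) and 9 lower (11.5% of all genes), and at day 6 it called 7 higher (5.40%) and 7 lower (7.92%). At day 9 it called 1 higher (1.94%) and 1 lower (3.52%). In PRO-seq limma called 0 of 61, with 10 at an unadjusted p under 0.05 (0.667% of all genes higher, 0.832% lower). The median log2 difference of the tested list was between -0.01 and 0.02 in all 5 tables, as was that of all genes. The calls depend on the WT libraries. Without either WT replicate, which leaves 1 WT library, they fell at days 3, 6 and 9, and so did the calls over all genes. At day 9 they rose without either KO replicate, as did those over all genes. Under quantile normalization the calls of Rfx5, Nfyb, Pomp and Calr and the day 6 call of Hipk2, all described below, were lost.

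Among the other class I heavy chains, the nonclassical H2-Q4 fell at days 3, 6 and 9. It measured 10.9 and 10.7 FPKM in the WT and 5.70 and 6.61 FPKM in the KO at day 6. The log2 differences were -0.62 (SE 0.09, limma adjusted p = 0.0127), -0.72 (SE 0.11, adjusted p = 0.012) and -0.93 (SE 0.14, adjusted p = 0.0188). H2-Q4 belongs to a multigene family, so its reads are uncertain in the same way as those of H2-K1. It was the 1 call among 6 tested heavy chains at day 3, 6 at day 6 and 8 at day 9. On these days 11.5%, 7.92% and 3.52% of all genes were called lower. The medians of the tested heavy chains were -0.35, -0.34 and -0.38. They did not all go the same way. At day 3 H2-Q2, H2-Q4, H2-M5 and H2-Bl lay below 0, and H2-T23 and H2-T24 above it. H2-T23 then measured 16.8 and 11.25 FPKM in the WT and 25.4 and 18.7 FPKM in the KO, and was not called (0.63, SE 0.21). Its libraries overlapped at days 0, 6 and 9 (0.19, -0.01 and -0.25). H2-T24 lay between 0.14 and 0.22 at the 4 RNA days, without a call. H2-M3, another nonclassical heavy chain, had a mean under 1 FPKM in every table, so it was not tested, and it is named here after its values were seen. It measured 1.32 and 1.01 FPKM in the WT and 0.0701 and 0.208 FPKM in the KO at day 0. At day 9 it measured 1.21 and 1.71 FPKM in the WT and 0.205 and 0.197 FPKM in the KO. Both KO libraries lay below both WT libraries in all 5 tables, and the KO values rest on 1 to 9 reads a library. With the filter on low values removed, limma called H2-M3 at day 3 alone, with a log2 difference of -0.77 (SE 0.05, adjusted p = 0.0292), and its adjusted p was 0.059 to 0.0991 in the other 4 tables.

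In the peptide supply list genes were called in both directions. Psmb10, the third inducible proteasome subunit, rose at day 3 from 5.15 and 5.74 to 12.2 and 11.02 FPKM (log2 difference 0.97, SE 0.10, limma adjusted p = 0.00599) and at day 6 (0.62, SE 0.11, adjusted p = 0.0176). Psme2, a subunit of the proteasome activator PA28, rose on the same days (0.66 and 0.64). Pomp, which assists proteasome assembly, rose slightly at day 3 (0.22), and the loading chaperones Calr (0.27) and Pdia3 (0.37) rose at day 6. Erap1, the aminopeptidase that trims class I peptides, fell at day 3 (-0.53, SE 0.13, limma adjusted p = 0.0392) and at day 6 (-0.87, SE 0.12, limma adjusted p = 0.00949), and the aminopeptidase Lap3 fell at day 3 (-0.25). Together 3 of 18 tested genes of this list rose and 2 fell at day 3, beside 9.75% and 11.5% of all genes, and 4 rose and 1 fell at day 6, beside 5.40% and 7.92% of all genes. The share that fell at day 3 was near that of all genes. Tap2, the partner of Tap1, stayed between 0.144 and 1.29 FPKM in all RNA libraries and was tested at day 9 alone, where it was not called (-0.18, SE 0.21). Its libraries overlapped on that day, whereas those of Tap1 did not.

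Of the class II list, 1 of 4 tested genes was called at day 3, beside 9.75% of all genes called higher and 11.5% called lower. It was Ctsl, a lysosomal protease that degrades the invariant chain (-0.90, SE 0.17, limma adjusted p = 0.0222). At day 6 none of 4 was called, beside 5.40% of all genes higher and 7.92% lower. On that day 2 had an unadjusted limma p under 0.05, beside 3524 of 11184 genes. The coactivators were nearly silent in RNA: Nlrc5 did not exceed 0.127 FPKM and Ciita did not exceed 0.0611 FPKM in any of the 16 RNA libraries. Of the DNA-binding factors, Rfx5 fell at day 3 (-0.37, SE 0.10, limma adjusted p = 0.0432) and day 6 (-0.45, SE 0.11, adjusted p = 0.0461), from 4.69 and 4.76 to 2.99 and 3.40 FPKM on the latter day. Nfyb, an NF-Y subunit, rose on both days (0.32 each). The other factor genes with a mean of at least 1 FPKM were not called on these days. That made 1 of 7 tested factor genes called higher and 1 lower on each day. Over all genes 9.75% were called higher and 11.5% lower at day 3, and 5.40% and 7.92% at day 6. With so few factor genes, nothing is read from these counts.

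The interferon list also split, with 3 of 14 tested genes called higher and 2 lower at day 3, beside 9.75% and 11.5% of all genes. At day 6 it was 2 higher and 2 lower of 16, beside 5.40% and 7.92% of all genes. At day 9 it was 1 higher and 0 lower of 17, beside 1.94% and 3.52% of all genes. The share called lower at day 3 was near that of all genes. Irgm1, an interferon-inducible GTPase, rose at days 3, 6 and 9, from 1.33 and 1.39 to 3.91 and 3.88 FPKM at day 3 (log2 difference 1.05, SE 0.10, limma adjusted p = 0.00558) and by 0.84 and 0.85 on the later days. Bst2, or tetherin, rose at day 3 (0.83, SE 0.06, limma adjusted p = 0.00327), as did the transcription factor Irf1 (0.56, SE 0.08, limma adjusted p = 0.0131). Stat2, a transducer of type I interferon signalling, fell at days 3 and 6 (-0.74 and -0.62), and so did the interferon gamma receptor subunit Ifngr2 (-0.79 and -0.68). Among the Aire partner genes, the kinase Hipk2 (-0.75 and -0.50) and the deacetylase Sirt1 (-0.69 and -0.34) fell on both days. These were 2 of 6 tested on each day, beside 11.5% of all genes called lower at day 3 and 7.92% at day 6.

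**Figure D5:**
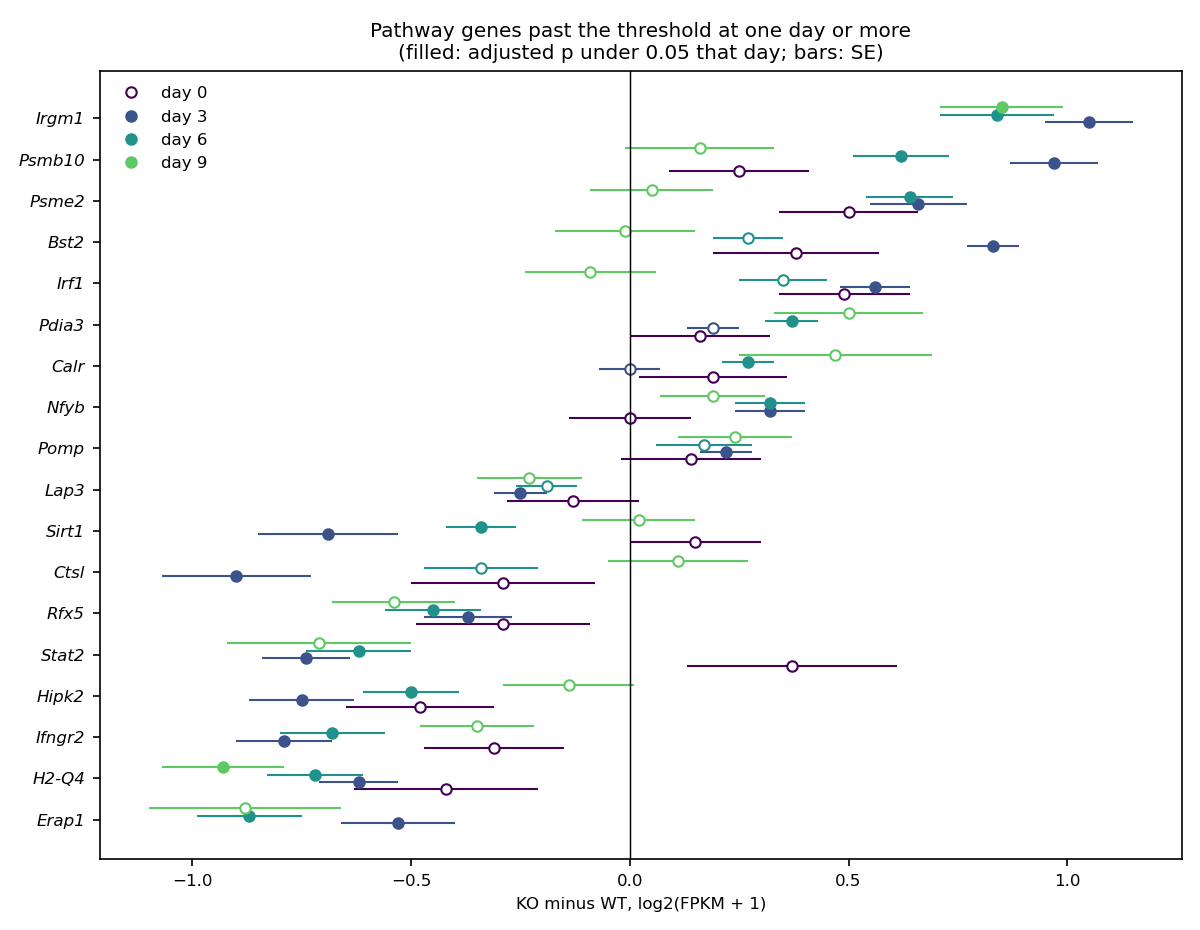
KO minus WT difference of mean log2(FPKM + 1), with SE bars, for listed genes outside the members that passed the threshold at 1 day or more (filled points, limma adjusted p under 0.05 on that day; open points, not past it). Irgm1, Psmb10 and Psme2 lie on the higher side and Erap1, H2-Q4, Ifngr2 and Stat2 on the lower side at days 3 and 6.

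Whether the KO effect on the listed genes differed between days was tested in 1 limma model of the 16 RNA libraries. Against day 0, 0 of 56 tested genes were called at day 3, day 6 or day 9, with 11, 11 and 12 at an unadjusted p under 0.05. Over all genes the calls were 1.34% at day 3, 1.92% at day 6 and 2.01% at day 9. So a listed gene called on a later day and not at day 0 was not shown to differ between them. Days 3, 6 and 9 were not tested against each other.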

How the data were processed

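RNA-seq and PRO-seq of WT and Mll2 KO cells were used. The submitters' processing notes name TopHat and mm9 for RNA-seq, and cutadapt 1.14, Trimmomatic 0.33 and Bowtie 1.1.2 with mm9 and dm3 (the fly spike-in) for PRO-seq; DESeq2 is named for both, with its role and the annotation not given in the sources used here. The authors deposited 5 tables of FPKM. All values resolved into whole reads (100.00% within 0.01 of a whole number), which gave depth and reads per gene. The members and lists were chosen with earlier results of these data known. Genes with a mean of at least 1 FPKM over the 4 libraries of a table were fitted on log2(FPKM + 1) with limma 3.58.1 (trend, R 4.3.3), 2-sided, Benjamini-Hochberg over all genes, call at 0.05, without a replicate term. A fold change with this pseudocount understates low genes. The fit was tested on simulated data. Named were all 10 members, listed genes past the threshold (at most 20 a table) and fixed regulators; for 3 members, the 5 most correlated genes. Promoters and gene neighbours came from RefSeq (GRCm38.p6), whose coordinates were not set against mm9, and the promoter of Cd74 was left out. Peak lists were not used here, and some listed genes are counted but not reported here by name. Alternatives were a pseudocount of 0.1, no filter, a filter at 5 FPKM, quantile normalization, a replicate block, a spread shared by the 16 RNA libraries, and leaving out each library. Figures used matplotlib 3.10.9.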

Additional observations from a re-analysis of the deposited data

Results flagged for a closer look

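In 3 members both KO libraries lay above both WT libraries on one day and below them on another, and these differences between days were not tested, because the members were chosen with these values known. For H2-Eb1 the KO minus WT difference of log2(FPKM + 1) was lower by 2.91 at day 6 than at day 0 (-2.91), and the change from day 0 to day 9 was -2.65. For Aire the change was -2.35 from day 0 to day 9 and -1.08 from day 3 to day 9. For Psmb8 the change from day 3 to day 9 was -1.21, with a mean under 1 FPKM at day 3.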

How the results depend on the processing

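Members' log2 differences (357 values over 38 pairs of gene and table) moved by more than 1 SD between replicates in 12 cases, and changed sign in 11, in each of which the reported difference was at most 0.27 in size. Counts of listed genes called moved more. The filter at a mean of 5 FPKM gave 9 calls at day 3 and 7 at day 6, beside 1425 of 7707 and 894 of 7749 genes. Without a filter there were 1 at day 6 and 0 at day 9, beside 333 of 19237 and 0 of 19567 genes. For the effect at day 9 against day 0 there was 1, beside 349 of 20702 genes. The spread shared by the 16 RNA libraries gave 4 at day 0, 9 at day 6 and 10 at day 9. Over all genes it gave 1068, 1189 and 1765 of 11368, and the cause was not tested. Leaving out 1 library at a time gave 0 to 0 calls at day 0, 3 to 20 at day 3, 0 to 20 at day 6, 0 to 6 at day 9 and 0 to 0 in PRO-seq, and for effects against day 0 gave 0 to 2 at day 3, 0 to 1 at day 6 and 0 to 1 at day 9. The calls over all genes also varied widely between these fits, each of which left 1 library in a group. The replicate block gave 13 calls at day 0, 23 at day 3, 19 at day 6, 10 at day 9 and 5 in PRO-seq. Over all genes it gave 2007 of 11318, 3667 of 11088, 2537 of 11184, 1398 of 11420 and 1290 of 14535. For effects against day 0 it gave 3, 1 and 4, beside 559, 607 and 736 of 11368 genes. With 2 pairs a table the shared numbers do not establish pairing, though same-numbered libraries deviated together (correlations of 0.25 to 0.57). All 16 calls of day 3 and all 14 of day 6 remained under the block. With 2 libraries a group the spread is poorly known, and members under 1 FPKM rest on few reads.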
